A study of Rattus norvegicus with 4 samples.

Results

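The miR-151 and miR-28 family was followed through the small RNA values of serum exosomes (Exos), the vesicles that cells shed into blood. The members were chosen by name, as both arms of a pair of related hairpins: rno-miR-151-3p, rno-miR-151-5p, rno-miR-28-3p and rno-miR-28-5p. Of these 4 miRNAs, 2 have a row among the 243 miRNAs listed, rno-miR-151-3p and rno-miR-28-3p. The 5p arms, rno-miR-151-5p and rno-miR-28-5p, were not analysed here, so no ratio between the arms of either hairpin could be formed.

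Rats of the exercise group ran on a level treadmill for 4 weeks, and those of the sedentary group did not train. Exos were pelleted from serum by ultracentrifugation, and 2 small RNA libraries carry the treatment label Exercise and 2 the label Sedentary. The series names 20 rats in each group, but how many rats stand behind a library is not given, so the spread between libraries may be technical. The study calls its animals adult male SD rats when it describes the injury model. The treatment label and the title do not point the same way: both sedentary titles begin with E and both exercise titles with N. The study's own account of its groups goes with the title letters and against the treatment label, so the labels may be exchanged, although these files alone cannot settle it. Exercise and sedentary libraries are named here by the treatment label alone, and if the title letters hold instead, every direction below turns while its size stays, so no direction should be read as an effect of training.

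A miRNA is cut from a hairpin transcript, and either arm of the hairpin, named 5p or 3p, can be loaded into an Argonaute protein. Bases 2 to 8 of the loaded strand, the seed, do most of the pairing with target mRNAs, so arms with different seeds can bind different targets. Many miRNA hairpins lie inside protein-coding genes and can be cut from the host's transcript. In the RefSeq gene table of GRCr8, the gene for focal adhesion kinase, Ptk2, spans Mir151, and Lpp, the gene of a LIM protein of cell adhesions, spans Mir28. Positions are left out because GRCr8 is not the assembly of the deposited values, and the strands of these genes were not compared.

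The 3p sequences show what the family shares. Those of the members come from the deposited values, in which T stands for U, together with a further miRNA that the values place in the family mir-28 (miR-3586-3p) and a related one placed in mir-708 (miR-708-3p). Capitals mark the seed.
miR-151-3p: cTAGACTGaggctccttgagg
miR-28-3p: cACTAGATtgtgagctcctgga
miR-3586-3p: aTACTAGActgtgagctcctcga
miR-708-3p: cAACTAGActgtgagcttctag

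The 4 seeds differ, and no other listed miRNA had the seed of any of them (0 in each case). Part of the sequence is nevertheless shared at another position. The run CTAGACTG, which opens miR-151-3p at bases 1 to 8, lies at bases 4 to 11 of both miR-3586-3p and miR-708-3p, shown here in capitals.
miR-151-3p: CTAGACTGaggctccttgagg
miR-3586-3p: ataCTAGACTGtgagctcctcga
miR-708-3p: caaCTAGACTGtgagcttctag

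miR-28-3p shares a longer run with miR-3586-3p, the 11 bases TGTGAGCTCCT, and 8 bases with miR-708-3p. Its longest common run with miR-151-3p was 6 bases, GCTCCT. By the number of single-base edits, miR-28-3p and miR-3586-3p were 4 apart and miR-28-3p and miR-708-3p 5 apart. miR-151-3p was at least 8 edits from every other listed sequence. No listed sequence thus lay within 1 or 2 edits of either member.

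For the 5p side, RefSeq holds the mature sequence of miR-28-5p, and the same seed occurs in its table in miR-708-5p alone among 693 mature names. Both are shown in RNA letters, with the seed in capitals, to mark the arms that have no value here.
miR-28-5p: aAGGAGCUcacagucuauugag
miR-708-5p: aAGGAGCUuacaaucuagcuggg

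The values are RPM, the reads of a miRNA per 1000000 reads of a library total that also holds reads outside the listed miRNAs. Each non-zero value was a whole multiple of the smallest one of its library (to within 0.01), taken here as 1 read. On that basis the listed miRNAs received 649210 to 814439 reads per library, between 2.93% and 3.92% of 20780612 to 22140315 reads. Intervals below cover counting error only, since the values carry no molecular identifiers. The values are relative to that total. They cannot show whether a difference lies in the number of vesicles, in the copies per vesicle or in the other RNA of a library.

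miR-151-3p was among the most abundant miRNAs in all 4 libraries and was lower in the exercise libraries. It stood at 4098 RPM (90214 reads) in sedentary replicate 1 and 5116 RPM (106311 reads) in sedentary replicate 2. In exercise replicate 1 it stood at 2406 RPM (52880 reads) and in exercise replicate 2 at 1946 RPM (43080 reads). Both sedentary libraries were above both exercise libraries, with no overlap. By level it was the third and the second of the listed miRNAs in sedentary replicates 1 and 2, and the fourth and the fifth in exercise replicates 1 and 2.

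As a share of all reads on listed miRNAs, miR-151-3p took 12.0% (95% Wilson interval 11.9% to 12.0%) and 13.1% (13.0% to 13.1%) in sedentary replicates 1 and 2. In the exercise libraries it took 7.63% (7.57% to 7.69%) in replicate 1 and 6.64% (6.58% to 6.70%) in replicate 2. The group means were 12.5% ± 0.774 (SD, n = 2) and 7.13% ± 0.703 (SD, n = 2). Counting error was 0.307% to 0.482% of the read number, so replicates of a group differed by far more than sampling of reads.

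The mean level of miR-151-3p was 2.12 times as high in the sedentary as in the exercise libraries. On the scale of log2(RPM + 1), its difference, exercise minus sedentary, was -1.08 (standard error 0.18, adjusted p = 0.025 by limma with Benjamini-Hochberg adjustment over 178 miRNAs). It was called at the thresholds of the study, that is, log2 fold change over 1 in size at an adjusted p under 0.05, which 2.81% of the miRNAs tested passed as lower in exercise. The study also picked miR-151-3p on these libraries, with DESeq2, and measured it by RT-qPCR in a separate batch of Exos, which is not examined here. The call by limma is thus not independent evidence, and the direction printed here is the one that turns if the labels are exchanged. With 1 library left out at a time the log2 difference ran from -1.24 (without sedentary replicate 1) to -0.92 (without sedentary replicate 2). Each of these 4 fits rests on 3 libraries, with 1 library alone in a group, so the call could not be checked in this way. Taken relative to the reads of the listed miRNAs alone, the log2 difference was -0.81, under the fold threshold (adjusted p = 0.032 by limma).

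miR-28-3p, some 17.5 times less abundant in sedentary replicate 1, showed the same order of libraries. It held 235 RPM (5165 reads) in sedentary replicate 1 and 276 RPM (5729 reads) in sedentary replicate 2. The exercise libraries held 138 RPM (3025 reads) in replicate 1 and 124 RPM (2752 reads) in replicate 2. Again the groups did not overlap, and within each group the replicates were closer together than those of miR-151-3p on the log2 scale. By level it was the sixteenth and the fifteenth listed miRNA in sedentary replicates 1 and 2 and the twenty-sixth in both exercise libraries.

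The share of miR-28-3p in the reads on listed miRNAs was 0.694% ± 0.0132 (SD, n = 2) in the sedentary and 0.430% ± 0.0089 (SD, n = 2) in the exercise libraries. Its log2 difference, exercise minus sedentary, was -0.95 (standard error 0.17, adjusted p = 0.025 by limma), just inside the fold threshold, and it was not called. An adjusted p under 0.05 alone was met, as it was for 3.93% of the miRNAs tested in this direction. Under median-of-ratios scaling the log2 difference was -1.06 and miR-28-3p was called (adjusted p = 0.010 by limma). With 1 library left out at a time the log2 difference lay between -1.07 and -0.84, and no call is read from these fits either. This member, too, was picked by the study on these libraries, and its direction turns in the same way.

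**Figure D1:**
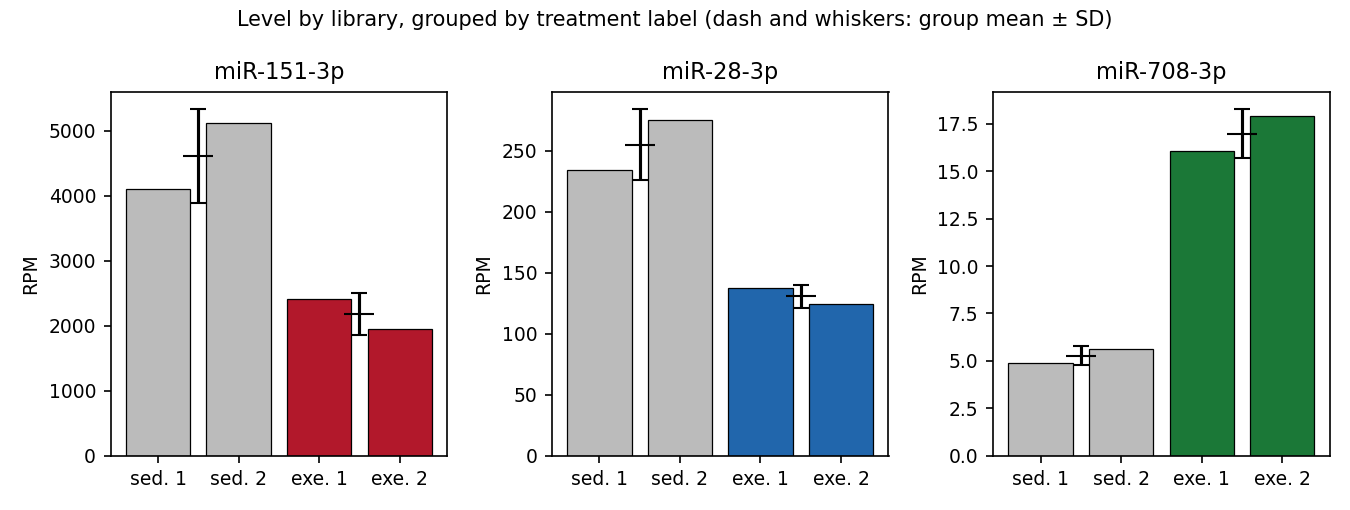
Level in RPM (linear axis from 0, own scale in each panel) of miR-151-3p, miR-28-3p and miR-708-3p in the sedentary (sed., grey) and exercise (exe., coloured) libraries, 1 bar per library, with the group mean ± SD between the bars. In the order sedentary against exercise, miR-151-3p reads 4098 and 5116 against 2406 and 1946 RPM, miR-28-3p 235 and 276 against 138 and 124 RPM, and miR-708-3p 4.91 and 5.63 against 16.1 and 17.9 RPM.

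The gap between groups can be set against the gap between replicates. For miR-151-3p the nearest libraries of the groups lay 0.77 apart on the log2 scale, against 0.31 between the exercise and 0.32 between the sedentary replicates. For miR-28-3p the nearest libraries of the groups lay 0.76 apart, against 0.15 and 0.23 between replicates. Among the 104 miRNAs above 0 in every library, the median gap between replicates was 0.27 in the exercise and 0.45 in the sedentary group. Both members thus had a smaller gap than the median miRNA between the sedentary replicates, and miR-28-3p, but not miR-151-3p, between the exercise replicates. Groups that do not overlap were common in these libraries, with 20.2% of the miRNAs tested lower and 32.0% higher in exercise without overlap.

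Over the 178 miRNAs tested the median log2 difference was 0.21, with 72 miRNAs below and 106 above 0. In order from the most negative, miR-151-3p was at place 20 and miR-28-3p at place 25. With the groups exchanged, as the title letters would have it, 106 miRNAs would be below and 72 above 0, and these would be places 20 and 25 from the most positive. Of the 22 miRNAs with at least 100 RPM in every library, 10 had a negative log2 difference and the median was 0.14. Among these 22, miR-151-3p had the most negative log2 difference and miR-28-3p the fourth most negative by the treatment labels, or the most positive and the fourth most positive with the groups exchanged.

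**Figure D2:**
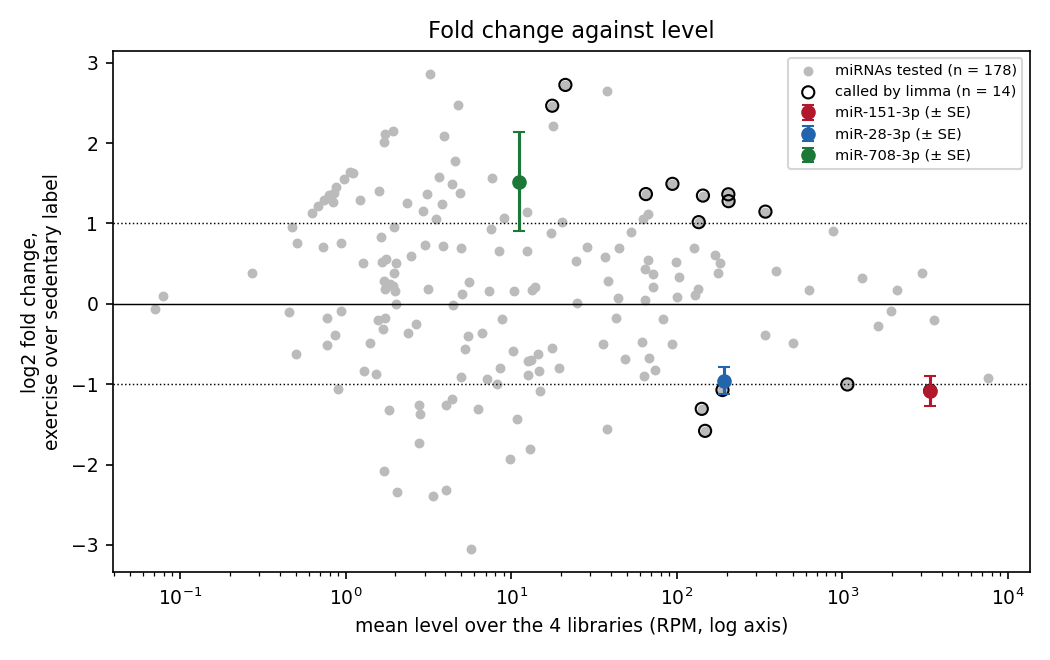
Log2 fold change, exercise over sedentary label, against the mean level over the 4 libraries (RPM, log axis) for the 178 miRNAs tested, with those called by limma circled and whiskers of ± 1 standard error for 3 named miRNAs. miR-151-3p at -1.08 stands at the abundant end, miR-28-3p at -0.95 lies just inside the dotted threshold of 1, and miR-708-3p at 1.52 has a wide standard error.

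The ratio of the members within a library does not depend on the library total. miR-151-3p exceeded miR-28-3p by 17.5 times in sedentary replicate 1 and 18.6 times in sedentary replicate 2. In exercise replicates 1 and 2 it exceeded miR-28-3p by 17.5 and 15.7 times. The ratio thus met at 17.5 in a library of each group, with an SD of 0.771 (n = 2) in the sedentary and 1.29 (n = 2) in the exercise libraries. On the log2(RPM + 1) scale, where the pseudocount separates the groups narrowly, the ratio differed by -0.13, exercise minus sedentary (exact two-sided permutation test over the libraries, p = 0.33, the smallest that 2 libraries against 2 can give). Without a pseudocount the groups overlapped, and the log2 ratio differed by -0.12 (exact permutation test, p = 0.67). A difference in this ratio could not be shown or dismissed with these libraries.

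The miRNAs whose profile over the libraries was most like that of a member were found by the root mean square difference between log2(RPM + 1) values, each centred on the miRNA's own mean. The 103 other miRNAs above 0 in every library were compared, over 4 libraries, as a description with no test. The miRNA closest to miR-151-3p was miR-486, at 0.078, followed by miR-28-3p at 0.091 and miR-320-3p at 0.097. Places 4 and 5 went to miR-122-5p (0.16) and miR-328a-3p (0.20), against a median of 0.70 over all 103. For miR-28-3p the same names came up in another order, with miR-320-3p at 0.052, miR-486 at 0.063, miR-151-3p at 0.091, miR-122-5p at 0.098 and miR-328a-3p at 0.11. The members were therefore at place 2 and place 3 in each other's order.

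These neighbours span a wide range of levels. miR-486, abundant in red cells and muscle, ran from 4724 to 11162 RPM over the libraries. miR-122-5p, made in hepatocytes, ran from 696 to 1469 RPM, whereas miR-320-3p and miR-328a-3p stayed between 39.5 and 103 RPM. As the members' groups did not overlap, choosing the closest profiles largely fixed the order of the groups in these 4 miRNAs, and nothing is read from it.

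**Figure D3:**
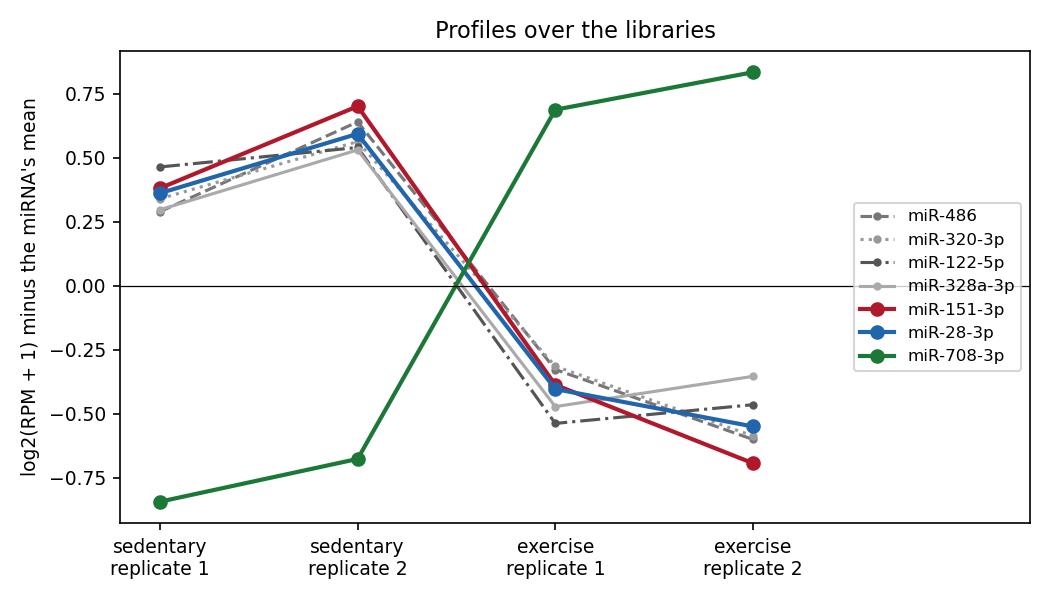
Values of log2(RPM + 1) minus the miRNA's own mean (vertical axis) in the 4 libraries (horizontal axis) for miR-151-3p, miR-28-3p, miR-708-3p and, in grey, the 4 other miRNAs closest to the members; lines join the values of 1 miRNA and mark no order of replicates. The members and their neighbours lie above 0 in both sedentary and below 0 in both exercise libraries, and miR-708-3p lies on the other side of 0 in each.

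Summed levels of cell-type miRNAs are given beside these results. The red cell list (miR-486, miR-451-5p, miR-144-3p and miR-16-5p) summed to 8768 and 11312 RPM in the sedentary and 5774 and 4803 RPM in the exercise libraries. Nearly all of that was miR-486: without it the sums were 14.7 and 150 RPM in the sedentary and 64.3 and 79.0 RPM in the exercise libraries, and miR-144-3p was at 0 in 3 of 4 libraries. The liver list (miR-122-5p, miR-192-5p and miR-194-5p) summed to 1462 and 1601 RPM in the sedentary against 811 and 821 RPM in the exercise libraries, with miR-194-5p at 0 in 3 libraries. This list moved through miR-122-5p (1394 and 1469 RPM in the sedentary, 696 and 732 RPM in the exercise libraries), while miR-192-5p overlapped between groups, at 68.5 and 132 RPM in the sedentary and 115 and 88.9 RPM in the exercise libraries. The platelet list (miR-223-3p, miR-126a-3p and miR-199a-3p) summed to 64.3 to 74.5 RPM over all 4 libraries. The muscle list (miR-1-3p, miR-133a-3p, miR-133b-3p and miR-206-3p) summed to 371 and 428 RPM in the sedentary and 497 and 449 RPM in the exercise libraries, with miR-133a-3p at 0 in 3 libraries. Most of it was miR-1-3p, whereas miR-206-3p, which skeletal muscle makes, lay the other way, as the members did, at 41.6 and 72.9 RPM in the sedentary and 21.9 and 14.8 RPM in the exercise libraries (log2 difference -1.56, adjusted p = 0.074 by limma, not called). Other markers lay against the members' direction without overlap. In the red cell list miR-16-5p held 0 and 1.97 RPM in the sedentary and 8.42 and 8.67 RPM in the exercise libraries. In the muscle list miR-1-3p held 327 and 355 RPM in the sedentary and 473 and 435 RPM in the exercise libraries. Whether the source of any miRNA of these lists has a part in the level of the members was not tested.

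miR-708-3p, whose gene Mir708 lies within the span of Tenm4 (a teneurin, a cell surface protein of neurons), gave values in the other direction. Sedentary replicates 1 and 2 had 4.91 RPM (108 reads) and 5.63 RPM (117 reads). Exercise replicates 1 and 2 had 16.1 RPM (353 reads) and 17.9 RPM (396 reads). Both exercise libraries were above both sedentary libraries. Its log2 difference, exercise minus sedentary, was 1.52 (standard error 0.62, adjusted p = 0.16 by limma), and it was not among the 5.06% of miRNAs called as higher in exercise. Over the 10 alternative settings that kept all 4 libraries, the adjusted p by limma lay between 0.059 and 0.30. Under none of these was miR-708-3p called.

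The relation of miR-708-3p to the members was computed after its values had been seen. miR-28-3p exceeded miR-708-3p by 47.8 and 49.0 times in sedentary replicates 1 and 2, but by 8.57 and 6.95 times in exercise replicates 1 and 2. For miR-151-3p the corresponding ratios were 835 and 909 in the sedentary and 150 and 109 in the exercise libraries. Neither pair of groups overlapped, and replicates of a group differed by less than the groups did. The members lay lower and miR-708-3p higher in both exercise libraries without overlap, so this separation followed from the levels already given. On the log2(RPM + 1) scale the ratio to miR-708-3p differed by -2.47 for miR-28-3p and -2.60 for miR-151-3p, exercise minus sedentary. An exact two-sided permutation test gave p = 0.33 for each, again the smallest possible, and this too was fixed by those levels. In the order of profiles miR-708-3p stood at place 97 of 103 for miR-151-3p and at place 96 for miR-28-3p. Its opposite direction largely fixed these places, and nothing further is read from them.

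miR-3586-3p, the third miRNA that the values place in the family mir-28, was barely detected. RefSeq names its gene Mir151b, with Mir3586 as a synonym, and its span overlaps that of Mir151 within Ptk2. Whether these genes lie on the same strand was not examined. It had 35 reads (1.58 RPM) in exercise replicate 2 and 0 reads in the other 3 libraries. With 0 reads counted, up to 3 could have been missed, or 0.137 RPM in exercise replicate 1 and 0.136 and 0.144 RPM in sedentary replicates 1 and 2. With reads in 1 library only, it did not pass the filter and was not tested. The level of exercise replicate 2 lay above these limits, so the exercise replicates disagreed, and no difference between groups is read from it.

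**Figure D4:**
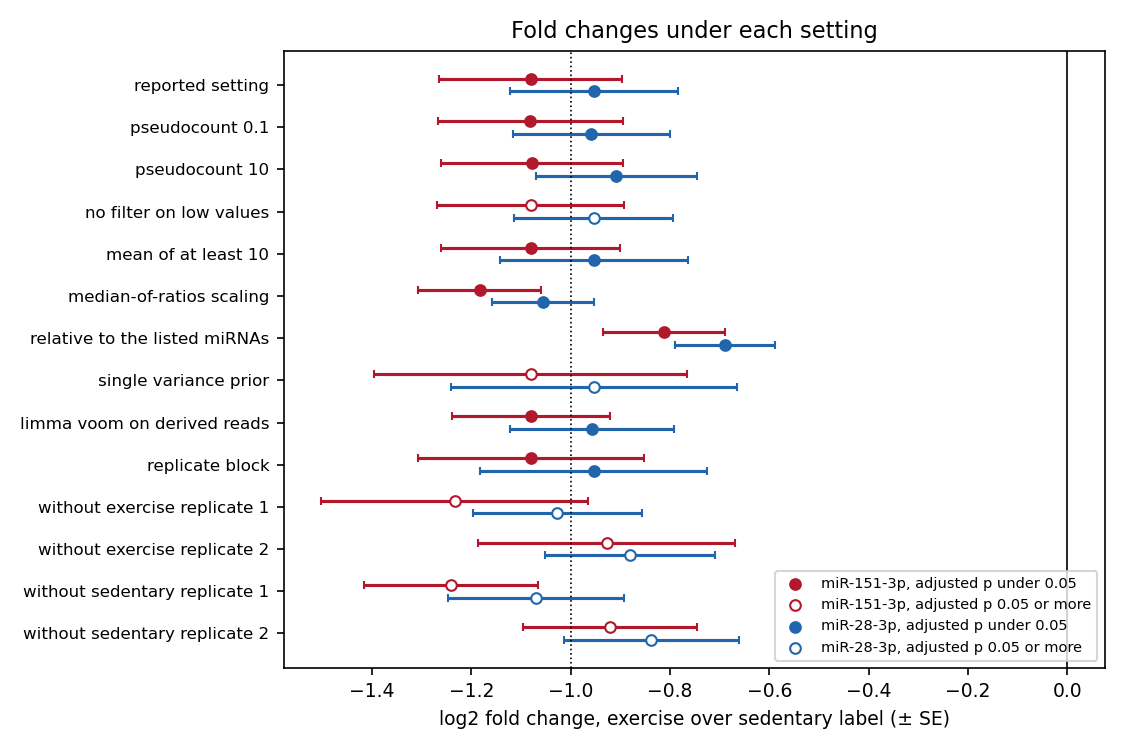
Log2 fold change, exercise over sedentary label, ± 1 standard error, of miR-151-3p (red) and miR-28-3p (blue) under the reported setting and the alternatives (vertical axis), with filled points for an adjusted p under 0.05 by limma and a dotted line at -1. All points are below 0, and open points mark the settings without the filter, with a single variance prior and with 1 library left out. No call is read from the last of these, where a group holds 1 library.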

How the data were processed

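Small RNA of serum Exos was measured in 4 libraries. The authors trimmed reads with cutadapt, kept those of 18–35 nt, aligned them to mRatBN7.2 with an aligner that their methods call Bowtie2 and the submitters' processing notes Bowtie, counted them on miRBase miRNAs with featureCounts, and deposited a table that they name TPM. The deposited values are RPM, because they are not scaled for length. The deposited length of each mature miRNA was not used. No sample column was left unmapped (0).

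limma 3.58.1 in R 4.3.3 was fitted to log2(RPM + 1) with a trended variance prior, over the 178 miRNAs above 0 in at least 2 libraries, and tested on simulated data. Dividing by the lowest value in a library gave its reads. Too few low values (10 to 19 in a library, up to 20 reads) were there to check them fully, so a model of these reads, limma voom, served only as an alternative. Ratios, sequences and figures were computed in Python 3.11.15. RefSeq names matched 221 of the 243 listed miRNAs and 2 of the 4 members.

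The members and lists were chosen with earlier results of these data known. Named were the members, miR-708 arms, the rest of family mir-28, miRNAs sharing a seed, the closest sequence, the 5 closest profiles and 4 marker lists. The planned fit of arm ratios was not run, because no member hairpin had both arms among the values. Of all 171 hairpin names, 35 had both. Replicates differed by more than sampling noise (chi-square per degree of freedom 44.0 in exercise and 147 in sedentary), and each was counted as 1 sample. Alternatives changed the pseudocount, filter, scaling, variance prior, model and block, or left out each library.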

Additional observations from a re-analysis of the deposited data

How the results depend on the processing

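The log2 difference of miR-151-3p, exercise minus sedentary, was negative under all 14 alternatives computed. Of the 10 that kept all 4 libraries, 7 called it. The call was lost when miRNAs with low values were kept (-1.08, adjusted p = 0.053 by limma, with 243 miRNAs tested), when values were taken relative to the reads of the listed miRNAs (-0.81) or with a single variance prior (-1.08, adjusted p = 0.15 by limma). With 1 library left out the log2 difference ran from -1.24 to -0.92, and no call is read from these fits. That of miR-28-3p was also negative under all 14 and was called under median-of-ratios scaling alone (-1.06). With 1 library left out it ran from -1.07 to -0.84. Where a group was left with 1 library, that library was assumed to vary like the other group. The difference in the ratio of miR-151-3p to miR-28-3p was -0.12 with pseudocount 0.1 or, added once the data had been seen, with none (exact permutation p = 0.67 for both), -0.17 with pseudocount 10 (p = 0.33), and -0.21 to -0.047 with 1 library left out.

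Scaling to the reads of the listed miRNAs moved the median log2 difference of all tested miRNAs from 0.21 to 0.68, and the miRNAs called from 14 (9 higher, 5 lower) to 29 (25 higher, 4 lower). Median-of-ratios scaling gave 14 (5 higher, 9 lower), no filter 3, and a single variance prior 0, where 44 passed the fold threshold with an unadjusted p under 0.05. The cause of these changes was not tested. Deviations of libraries with the same replicate number had a correlation of -0.15, so the numbers were not taken as pairs. With the replicate block the log2 differences of miR-151-3p and miR-28-3p were -1.08 and -0.95 and 18 miRNAs were called. Crossing the block, an alternative added once the data had been seen, gave 18 calls as well. The number of libraries and the spread between them, more than reads, limit the precision for both members.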
